A study of Mus musculus with 40 samples.

Results

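The transcriptional response that iTregs mounted to restimulation while calcium entry or calcineurin was inhibited was measured in 9 RNA-seq libraries, out of 24 RNA-seq libraries and 40 samples in the series. They were 3 libraries of iTregs restimulated with CM-4620, 3 of iTregs restimulated with CsA, and 3 of resting iTregs. The 6 treated libraries were compared together with the 3 resting ones, with the replicate number as a block, and each gene was then also read with each inhibitor alone. The 3 libraries of iTregs restimulated without inhibitor are set beside them, which made 12 iTreg libraries in one fit. The series holds no libraries of resting iTregs given CM-4620 or CsA. An effect of a drug itself and a response to restimulation therefore cannot be told apart in the comparison with rest. How complete the inhibition was is not given for these libraries. All 4 groups came from naive CD4+ T cells of 6-week-old C57BL/6 mice that carried a Foxp3 reporter. The cells were induced for 4 days with plate-bound antibodies to CD3 and CD28, IL-2 and 2 ng per ml of TGF-β, sorted on the reporter and rested for 1 day with IL-2. Restimulation was again through plate-bound antibodies to CD3 and CD28, for a time that is not given in the sources used here for RNA-seq. iTregs made in this way are an in vitro model of Tregs that arise outside the thymus. CM-4620, listed in the labels only as an ORAI inhibitor, blocks the store-operated calcium channels of the plasma membrane, and CsA (cyclosporin A) inhibits the phosphatase calcineurin through cyclophilin.

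Engagement of the T cell receptor opens several routes to the nucleus. In one, calcium that enters through Orai channels activates calcineurin, which dephosphorylates NFAT and lets it enter the nucleus. Other routes run through Ras and MAP kinases to AP-1, through protein kinase C-θ to NF-kB, and through CD28 and PI3 kinase to metabolism, and CM-4620 and CsA do not target them directly. Cytokines made by the activated cells add a further layer, since their receptors signal through JAK kinases and STAT factors. The gene groups below follow these roles, from signal-responsive GTPases and secreted factors to receptors, nuclear factors, Treg identity and metabolism.

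Depth was 10427000 to 14103874 reads per library over these 9 libraries, and the floor for detection, set at 3 reads, corresponded to 2.28 to 3.16 normalized counts. T cell markers (Cd3d, Cd3e, Cd3g, Cd4, Cd2, Cd5 and Lck) were high in every library and none of them was called in any comparison. Of 23 markers of other cell types, 7 were at 0 in all 12 libraries, among them Ms4a1, Pax5, Ncr1 and S100a8, and Lyz2 was above 0 in 1 library. The 23 markers summed to between 170.7 and 201.1 normalized counts in resting libraries, 184.7 to 222.7 with CM-4620, 188.7 to 220.7 with CsA and 218.9 to 248.8 without inhibitor. Cd8b1, at 93.0 to 113.2, and Ebf1 made up most of this sum. Only 4 of the 23 markers passed the filter for testing. Of these 4, 2 were called with either inhibitor against rest, in opposite directions, where 9.31% of all genes tested were called. Ebf1, a B lineage factor, rose with a log2 fold change of 1.50 ± 0.21 (SE; limma adjusted p 4.49e-05), and Cd79b, a chain of the B cell receptor, fell by 0.69 on the log2 scale (limma adjusted p 0.0301), from a mean of 31.9 to 23.5 with CM-4620 and 15.9 with CsA. Their part in the results below was not tested. Replicate 3 was the lowest library of every group in some genes, among them Xbp1, Ltb, Dusp1, Insig1 and Ero1l. In the resting libraries Xbp1 held 2566, 4321 and 1500.1 normalized counts, and Ltb 6919, 8157 and 4648. Herpud1, of the same list as Xbp1, did not show this. In Ltb, Dusp1, Insig1 and Ero1l, which are called below, treated libraries overlapped the resting range. In bulk libraries, fewer cells of a type and less RNA per cell cannot be told apart.

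With either inhibitor, 1034 of 11105 genes tested differed from resting iTregs, 9.31% of them, 549 (4.94%) higher and 485 (4.37%) lower. Every count of rises and falls in a gene group below is to be read against these shares. The test was limma on log2(normalized count + 1), and a gene was called where it differed by more than 0.5 on the log2 scale with a Benjamini-Hochberg adjusted p under 0.05, the limits the study used. CM-4620 alone gave 917 genes (8.26%; 467 higher, 450 lower) and CsA alone 1143 (10.3%; 604 higher, 539 lower). Of the 1034 genes, 647 were called the same way with each inhibitor alone, 364 higher and 283 lower, which are 5.83%, 3.28% and 2.55% of the genes tested. All 6 treated libraries lay outside the range of the 3 resting ones in 590 of these 647, which the calls on the same libraries largely fix, and in 23.9% of all genes tested. Restimulation without inhibitor gave 1500 genes (13.5%; 764 or 6.88% higher, 736 or 6.63% lower), and it shares the resting libraries with these comparisons.

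Most genes called with each inhibitor were also called the same way without inhibitor. These comparisons all subtract the same resting libraries, which in itself favours such overlap and medians of like sign. How much of the overlap this accounts for was not tested, so the counts are a description. Of the 364 genes that rose with each inhibitor, 300 were also called higher on restimulation without inhibitor, 64 were not called and none was called lower. Their median log2 fold change was 0.85 with CM-4620, 0.93 with CsA and 0.97 without inhibitor, against medians of -0.01, -0.02 and -0.01 over all genes tested. Of the 283 genes that fell with each inhibitor, 221 were also called lower without inhibitor, 61 were not called and 1 was called higher. That gene was Selenbp1, a selenium-binding protein, chosen here after its values were seen, with means of 97.0 normalized counts at rest, 55.2 with CM-4620, 67.7 with CsA and 151 without inhibitor. Compared directly with restimulated iTregs, the inhibitors gave no called difference for 288 of the 364 and for 242 of the 283 genes. Between inhibitors and uninhibited restimulation 406 genes were called in all (3.66%; 206 higher and 200 lower with the inhibitors). A missing call is not evidence that values were equal. At the size limit, Id2, Ahi1 and Klc4 were just inside among the rises, all at 0.50 on the log2 scale, and Dgat1 and Ercc5 just outside, also at 0.50 after rounding.

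The guanylate-binding proteins and immunity-related GTPases, interferon-inducible enzymes that act against pathogens inside cells, rose as a group. Of 16 members tested, 10 rose and none fell, where 4.94% of all genes tested rose. Their median log2 fold change was 0.61 with either inhibitor, 0.58 with CM-4620, 0.58 with CsA and 0.60 without inhibitor. Gbp2 (chr3:142620602-142638008 on GRCm38) held 4165, 4136 and 4560.1 normalized counts in the resting libraries, 14997, 15060 and 16315 with CM-4620 and 16460, 16767 and 17806 with CsA. All 6 treated libraries lay far above the resting ones, with a log2 fold change of 1.92 ± 0.04 (SE; limma adjusted p 1.35e-15). Without inhibitor Gbp2 stood at 15852, 15932 and 16958, and the difference of the inhibitors from this group was -0.00 ± 0.04 (SE; limma adjusted p 0.973). Its 95% interval ran from -0.09 to 0.08.

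Gbp10 held 29.5, 28.2 and 53.1 normalized counts in the resting libraries, 183, 216 and 219 with CM-4620 and 259.6, 243 and 226 with CsA. No treated library overlapped the resting range, but both inhibitors left Gbp10 below its level without inhibitor, which was 409.9, 357 and 394 (difference -0.79, limma adjusted p 0.000976). Others called with each inhibitor were Iigp1 (0.82), Irgm1 (0.77), Gbp5 (0.71), Gbp9 (0.69), Gbp8 (0.66) and Tgtp1 (0.56), with the log2 fold change over both inhibitors in parentheses, and Gbp6, which rose from a mean of 1259 to 2726 with CM-4620 and 2938 with CsA. Tgtp2 (0.53) was called over both inhibitors together but not with each alone. These genes lie in clusters, Gbp2 and Gbp5 on chromosome 3, Gbp6, Gbp8, Gbp9 and Gbp10 on chromosome 5, Irgm1 and Tgtp1 on chromosome 11. Values of single members are uncertain where copies share reads, since 46.3% of the exon bases of Gbp10 and 29.0% of those of Gbp6 are shared with another annotated gene, and other members are close paralogs.

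The promoters of these genes share a letter pattern. The window from 250 bases before to 50 after the first listed start was taken from RefSeq (GRCm38.p6), and both strands were searched for the core of the interferon response element, GAAA and GAAA with any 2 bases between. It was present in all 9 GTPase genes of the list that the table holds, against 3.18% of the 8850 promoters of genes tested. Its share was 8.82% of the 272 of genes that rose with each inhibitor and 5.31% of the 226 of genes that fell. TTCNNNGAA, a core of STAT sites, was present in 6 of the 9, against 6.99% of all. These windows also held TGGAAA, a core of NFAT sites, in 5 of the 9, against 16.4% of all. The AP-1 core TGANTCA was in 2 of the 9, against 4.61% of all. The windows of Gbp2 (chr3:142620413-142620712, plus strand), Gbp5 (chr3:142496684-142496983, plus strand), Irgm1 (chr11:48871371-48871670, minus strand) and the antiviral gene Bst2 (chr8:71537423-71537722, minus strand) are shown 5′ to 3′ because they hold these patterns, with the matches to either in capitals. Overlapping matches run together in Irgm1 and Bst2. A match is a letter pattern and was not shown to be bound.
Gbp2: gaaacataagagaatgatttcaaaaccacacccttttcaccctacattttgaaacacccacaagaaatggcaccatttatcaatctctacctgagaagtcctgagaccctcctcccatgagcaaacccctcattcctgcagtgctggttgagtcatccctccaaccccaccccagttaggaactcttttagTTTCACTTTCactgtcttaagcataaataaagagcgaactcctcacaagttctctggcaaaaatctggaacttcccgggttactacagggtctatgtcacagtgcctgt
Gbp5: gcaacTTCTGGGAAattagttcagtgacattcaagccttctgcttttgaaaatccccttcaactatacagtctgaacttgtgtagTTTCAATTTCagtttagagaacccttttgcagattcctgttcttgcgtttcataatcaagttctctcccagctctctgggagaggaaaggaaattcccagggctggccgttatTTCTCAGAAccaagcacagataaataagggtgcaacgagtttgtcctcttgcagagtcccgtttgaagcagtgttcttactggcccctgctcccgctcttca
Irgm1: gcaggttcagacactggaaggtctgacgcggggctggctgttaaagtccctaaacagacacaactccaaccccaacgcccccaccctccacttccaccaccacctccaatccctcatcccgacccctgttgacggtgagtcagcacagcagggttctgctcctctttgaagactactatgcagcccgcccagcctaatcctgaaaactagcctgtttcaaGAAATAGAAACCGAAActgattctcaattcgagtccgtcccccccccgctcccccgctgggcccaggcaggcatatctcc
Bst2: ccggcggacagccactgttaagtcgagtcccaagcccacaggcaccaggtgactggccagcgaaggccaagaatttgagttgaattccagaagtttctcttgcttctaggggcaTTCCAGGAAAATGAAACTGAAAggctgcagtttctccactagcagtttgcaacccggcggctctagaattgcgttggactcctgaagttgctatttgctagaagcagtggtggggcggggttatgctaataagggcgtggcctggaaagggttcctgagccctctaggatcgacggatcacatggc

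The factors that signal from interferon and cytokine receptors rose in part. Of 17 genes of the JAK-STAT pathway and its SOCS inhibitors, 4 rose, Stat2, Socs3 and Pim2 among them, and none fell. Pim2, a survival kinase that STAT factors induce, rose from 752 ± 20.6 (SD, n = 3) to 1429.8 ± 54.9 with CM-4620 and 1949 ± 113 with CsA. Stat2 was called at 0.51, below its 1.05 without inhibitor (difference -0.54, limma adjusted p 1.09e-05), and it was under the size limit without replicate 3. Stat3 stood at 0.46, under the size limit, against 0.82 without inhibitor.

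Classical interferon-stimulated genes were divided. Of 24 tested, 7 rose and 2 fell, with a median of 0.30. Bst2, which tethers budding virus at the cell surface, held 705, 713 and 724 normalized counts in the resting libraries, 1169, 1222 and 1178 with CM-4620 and 1276, 1243 and 1140.3 with CsA. Samhd1, which depletes nucleotides needed by viruses, rose by 0.81 on the log2 scale, Ifih1, a sensor of viral RNA, by 0.84, and Irf7 by 1.25 at a level of 36.2 normalized counts. Ifit1, an antiviral RNA-binding protein, held 10.5, 9.08 and 7.59 normalized counts in the resting libraries, 27.5, 39.6 and 30.7 with CM-4620 and 31.7, 20.5 and 26.4 with CsA and 21.2, 8.97 and 15.4 without inhibitor. Both inhibitors thus lay above the resting libraries, and over both they were called above restimulated iTregs as well (difference 0.96, limma adjusted p 0.0233). Isg15 (0.90) and Xaf1 (0.55) were called over both inhibitors and not with each alone.

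Isg20, an exonuclease of viral RNA, ran the other way and held 652, 692 and 745 normalized counts in the resting libraries, 201, 229.7 and 192 with CM-4620 and 249, 248 and 222 with CsA. It fell without overlap, with a log2 fold change of -1.64 ± 0.12 (SE; limma adjusted p 3e-08), and further without inhibitor, to 144, 84.0 and 91.7. Cmpk2, a mitochondrial nucleotide kinase, was called lower over both inhibitors (-0.75). The p200 genes, interferon-inducible sensors and regulators in the nucleus, had 2 of 4 tested members lower and none higher. Ifi203 went from 148, 140.2 and 183 normalized counts at rest to 30.6, 38.7 and 43.0 with CM-4620 and 29.6, 24.6 and 24.8 with CsA, and Mndal fell by 1.07 on the log2 scale. Ifitm3, an antiviral membrane protein among the largest falls, held 739, 746 and 731 normalized counts in the resting libraries, 242, 267 and 259 with CM-4620 and 242, 229 and 219.9 with CsA, with 141, 139 and 141 without inhibitor.

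**Figure D1:**
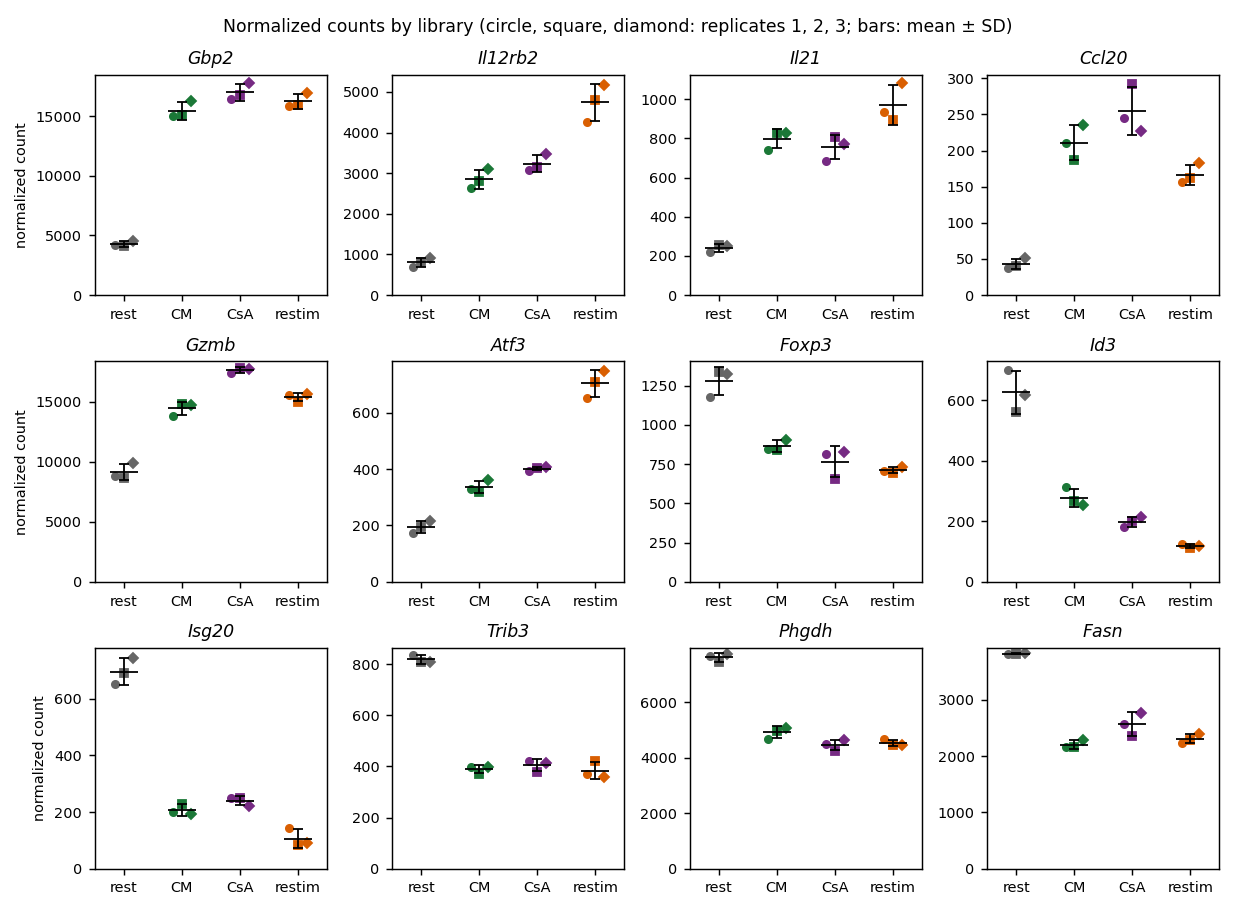
Normalized counts of 12 genes in the 12 iTreg libraries (rest, resting; CM, with CM-4620; CsA, with CsA; restim, restimulated without inhibitor); points are libraries, with a shape for each replicate number, and bars give the mean and SD of 3 libraries. Gbp2 stands at like levels in all 3 restimulated groups, Il12rb2 is lower with the inhibitors (means 2853 and 3229.5) than without (4743), and Trib3, Phgdh and Fasn lie below the resting libraries in every restimulated library.

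Transcripts of secreted factors were among those that changed under the inhibitors. These values are RNA and say nothing of secretion. By ELISA, the study reported that CsA and CM-4620 inhibited the IL-21 that restimulated iTregs secrete. From RNA-seq it also placed Il21 among genes that rose on restimulation but not under either inhibitor, and it followed T helper genes by QPCR. Of 14 effector cytokines tested, 5 rose and 1 fell, with a median of 0.29 under the inhibitors and 0.80 without. The list has 21 genes, and the others did not pass the filter. Il9 and Il4 passed it only with the help of restimulated libraries, with or without inhibitor, where they were high. This favours rises in the count. Il21, a cytokine of helper T cells that acts on B cells, held 219, 255 and 250.4 normalized counts in the resting libraries, 742, 827 and 828 with CM-4620 and 687, 808 and 771 with CsA. The 6 treated libraries lay between 687 and 828, all above rest, with a log2 fold change of 1.68 ± 0.06 (SE; limma adjusted p 5.45e-12). Without inhibitor Il21 reached 936, 893 and 1084. The difference of the inhibitors from this group was -0.32 (limma adjusted p 0.00252), under the size limit. Il9 rose from 4.22, 3.03 and 1.52 to 23.5, 32.6 and 27.2 with CM-4620 and 14.3, 17.4 and 13.6 with CsA, levels close to the floor of 3 reads at rest. Il4, the cytokine of type 2 help, rose by 1.58 and Tgfb3 by 1.64. Il10, which restrains immune responses, rose to 59.7 ± 6.38 normalized counts (SD, n = 3) with CM-4620 and 118 ± 17.6 with CsA, from 32.6 ± 3.81. Ltb, a subunit of lymphotoxin, was called lower over both inhibitors (-0.62).

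All 3 chemokines tested rose. Ccl20, which draws cells that carry Ccr6, held 37.9, 40.4 and 50.8 normalized counts in the resting libraries, 210.2, 187 and 235 with CM-4620 and 245, 292 and 227 with CsA. It rose with a log2 fold change of 2.41 ± 0.11 (SE; limma adjusted p 8.79e-11), and its 6 treated libraries lay above those without inhibitor too, which were at 156, 161 and 183, by less than the size limit (0.47, limma adjusted p 0.00952). Ccl5 rose from a mean of 32.8 to 80.7 with CM-4620 and 80.7 with CsA. Ccl4 rose by 0.84 over both, with 85.7, 83.6 and 93.0 normalized counts with CM-4620 and 144, 121 and 116 with CsA.

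Some receptors for such factors changed, in both directions. Of 23 cytokine receptor genes, 3 rose and 2 fell, where 4.94% of all genes tested rose and 4.37% fell. Il12rb2, the signalling chain of the IL-12 receptor, held 683, 823 and 911 normalized counts in the resting libraries, 2645, 2809 and 3104 with CM-4620 and 3074, 3149 and 3466 with CsA, a rise with a log2 fold change of 1.92 ± 0.05 (SE; limma adjusted p 1.32e-14). Without inhibitor it stood at 4260.4, 4793 and 5176, above every library with an inhibitor. Another gene shares 40.0% of its exon bases. Il1r2, a decoy receptor of IL-1, rose by 1.12 and Il15ra by 0.58, whereas Il18rap, a chain of the IL-18 receptor, fell by 0.95 and Tgfbr1 by 0.56 over both inhibitors. Of 12 chemokine and sphingosine phosphate receptors, 3 rose and 3 fell. Among the rises were Ccr1 and Ccr2, receptors of inflammatory chemokines, of which Ccr2 was called with CsA (1.52) and not with CM-4620 (0.45, limma adjusted p 0.258). Ccr2 was not called without inhibitor either (-0.10). Ccr1 held 0, 3.03 and 3.04 normalized counts in the resting libraries, 16.3, 13.2 and 11.4 with CM-4620 and 24.5, 16.4 and 13.6 with CsA, so that the resting libraries lay near the floor of 3 reads and all 6 treated ones above them. The falls were in S1pr1 and S1pr4, which guide exit from lymphoid tissue, and in Cxcr3, which was not called with CM-4620 alone. S1pr1 held 914, 1065 and 918 normalized counts in the resting libraries, 546, 479 and 597 with CM-4620 and 554, 586 and 676 with CsA.

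Among nuclear factors, 5 of 14 genes of the AP-1, BATF and IRF families rose and none fell. Atf3, an AP-1 relative that stress and activation induce, held 174, 195 and 216 normalized counts in the resting libraries, 328, 319 and 359.8 with CM-4620 and 395, 403 and 408 with CsA. It rose without overlap, with a log2 fold change of 0.91 ± 0.07 (SE; limma adjusted p 2.09e-08), to a level under that without inhibitor of 652, 710.5 and 749. Jun, a core subunit of AP-1, rose from 257 ± 13.4 (SD, n = 3) to 393 ± 34.3 with CM-4620 and 518 ± 57.5 with CsA, where it stood at 409 ± 38.6 without inhibitor. Batf3 rose by 0.72, and Fosl2 (0.65) and Maff (0.63) were called over both inhibitors and with CsA, but not with CM-4620 alone. Of 18 NF-kB subunits and feedback genes 1 rose, a share near the 4.94% of all genes tested. It was Bcl3, a nuclear IκB protein, with a log2 fold change of 0.76 ± 0.08 (SE; limma adjusted p 1.29e-06). Nr4a2 (0.68) rose and Egr2 (-0.65) fell among 8 EGR, NR4A and TOX genes, neither with each inhibitor alone. Nr4a2 stood at 1.68 without inhibitor and Egr2 at 0.49, the latter not called. Both were lower with the inhibitors than in restimulated iTregs (-1.01 and -1.14, limma adjusted p 0.00259 and 0.000318). Of 12 genes of NFAT, calcineurin and RCAN none rose, and Ppp3cb, a catalytic subunit of calcineurin, fell to 222, 223 and 212 with CM-4620 and 216, 219.6 and 199.9 with CsA, from 318, 309 and 360.4.

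Lineage factors of helper T cells gave 4 rises and 2 falls among 13 genes. Maf, which drives Il10 and Il21 in helper cells, held 539, 484 and 567 normalized counts in the resting libraries, 877, 986 and 896 with CM-4620 and 1145, 1226 and 1102 with CsA. Hlx, a partner of T-bet, rose by 1.83 at levels near the floor of 3 reads, and Id2 by 0.50 over both, with 0.21 with CM-4620 and 0.79 with CsA (difference -0.58, limma adjusted p 0.000276). Gata3, the factor of Th2 cells, held 1517, 1636 and 1681 normalized counts in the resting libraries, 1047, 1178 and 845 with CM-4620 and 1211, 1201 and 934 with CsA, and its fall of 0.60 was under the size limit without replicate 3. The change of Gata3 without inhibitor, -0.28, was under the size limit. Eomes was called lower over both inhibitors (-0.57). Tbx21, which encodes T-bet, was not called with the inhibitors. It stood at 83.3, 98.9 and 54.6 at rest, at 88.8, 61.6 and 28.1 with CM-4620 and 84.8, 105 and 68.0 with CsA, and at 175, 226 and 123 without inhibitor, so that the inhibitors differed from restimulated by -1.32 (limma adjusted p 3.58e-05) and from resting by -0.18 (adjusted p 0.427).

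The AP-1 core TGANTCA was present in 13.6% of the 272 promoters of genes that rose with each inhibitor, in 4.87% of the 226 of genes that fell and in 4.61% of all 8850 of genes tested. TGGAAA, a core of NFAT sites, was present in 19.9%, 11.9% and 16.4%, and GGG and TTTCC with any 2 bases between, a core of NF-kB sites, in 3.31%, 2.65% and 1.6%. The windows of Gzmb (chr14:56262285-56262584, minus strand) and Il9 (chr13:56482208-56482507, minus strand), genes that rose with each inhibitor, are shown for the AP-1 core, which is in capitals.
Gzmb: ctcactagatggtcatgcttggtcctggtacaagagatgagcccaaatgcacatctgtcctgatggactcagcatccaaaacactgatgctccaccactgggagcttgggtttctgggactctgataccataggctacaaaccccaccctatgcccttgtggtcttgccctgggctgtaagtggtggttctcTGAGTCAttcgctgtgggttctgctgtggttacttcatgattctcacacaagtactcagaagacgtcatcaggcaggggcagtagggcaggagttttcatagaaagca
Il9: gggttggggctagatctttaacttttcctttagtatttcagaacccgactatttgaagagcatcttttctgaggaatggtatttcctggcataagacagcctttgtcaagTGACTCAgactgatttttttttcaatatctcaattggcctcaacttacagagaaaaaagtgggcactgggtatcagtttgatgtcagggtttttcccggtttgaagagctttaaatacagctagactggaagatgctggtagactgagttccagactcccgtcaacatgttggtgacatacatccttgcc

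Genes of killing and of contact with other cells rose to differing degrees. Of 7 granzyme and death receptor genes, 4 rose. Gzmb, the granzyme that cleaves caspases, held 8813, 8693 and 9899 normalized counts in the resting libraries, 13833, 14803 and 14731 with CM-4620 and 17368, 17848 and 17735 with CsA, against 15548, 14984 and 15658 without inhibitor. Fas, the death receptor, rose by 0.60, and by less than the size limit without replicate 3. Gzma rose from 788 ± 23.4 (SD, n = 3) to 995 ± 10.6 with CM-4620, 1432 ± 29.2 with CsA and 2029 ± 31.1 without inhibitor, in separate ranges. Fasl, the ligand of Fas, went from 32.7, 43.4 and 60.7 at rest to 62.2, 64.3 and 56.2 with CM-4620 and 88.9, 60.6 and 66.4 with CsA, a call that was lost without replicate 1 or replicate 2, and reached 168, 151 and 173 without inhibitor.

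Of 10 co-inhibitory genes, 4 rose and 1 fell. Both ligands of PD-1 rose. Cd274 (PD-L1) held 213, 204 and 219 normalized counts in the resting libraries, 377, 377 and 455 with CM-4620 and 443, 445 and 493 with CsA, and Pdcd1lg2 (PD-L2) rose from 82.2, 59.5 and 81.2 to 184, 218 and 191 with CM-4620 and 166, 192 and 186 with CsA. Tigit, an inhibitory receptor of Tregs, rose by 0.76, under its 1.40 without inhibitor (difference -0.64, limma adjusted p 0.00504). Havcr2 (TIM-3) was called over both inhibitors and with CsA but not with CM-4620 alone, at a log2 fold change of 0.45 with CM-4620 against 1.95 with CsA, and the inhibitors differed (limma adjusted p 0.0126). Its change without inhibitor, 0.11, was not called. Vsir (VISTA) was called lower over both (-0.54), and not with CsA alone. Of 14 costimulatory genes 1 rose, Tnfsf14 (LIGHT), by 0.56, under its 1.23 without inhibitor. Of 12 integrins none rose and 3 fell, Itgb3 (-1.15), Itga6 (-1.06) and Itga4 (-0.50), the last not with CM-4620 alone.

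Treg identity genes and genes of the quiescent state were lower in some members and not called in most. Of 18 Treg genes, 3 fell, 2 rose and 13 were not called. Foxp3, the factor that defines Tregs (chrX:7573644-7595245), held 1178, 1338 and 1324 normalized counts in the resting libraries, 847, 842 and 906 with CM-4620 and 815, 655 and 830.0 with CsA. The treated libraries lay below the resting ones, with a log2 fold change of -0.65 ± 0.07 (SE; limma adjusted p 1.09e-06), and the level without inhibitor was 705, 695 and 731. The inhibitors and uninhibited restimulation differed in Foxp3 by 0.19 ± 0.07 (SE; limma adjusted p 0.063). The cells had been sorted on a Foxp3 reporter before the rest, and 31.5% of its exon bases are shared with the neighbouring Flicr. Id3, a brake on E proteins that Tregs need, held 699.8, 561 and 618 normalized counts in the resting libraries, 312, 268 and 254 with CM-4620 and 179.9, 202 and 214 with CsA. It fell with a log2 fold change of -1.41 ± 0.09 (SE; limma adjusted p 4.42e-09) but stayed above its level without inhibitor, which was 124, 113 and 119.9 (difference 0.97, limma adjusted p 1.57e-06). Nrp1, a semaphorin receptor of Tregs, fell by 0.90.

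Of 18 genes of naive and quiescent T cells, 3 fell and none rose. Klf2, which keeps S1pr1 on, held 114, 71.6 and 86.5 normalized counts in the resting libraries, 58.1, 37.8 and 31.6 with CM-4620 and 38.8, 44.1 and 29.6 with CsA, with 20.1, 30.3 and 15.4 without inhibitor. Klf3 fell by 0.97 and S1pr1 by 0.76. Sema4a fell by 0.61, Il10rb stood at -0.35 and Tgfbr2 at -0.28, both under the size limit, and Nlrp6 at -0.94 (limma adjusted p 0.0586). The study names these genes, a choice that it made on these samples.

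Of the lists, those of lipid and amino acid synthesis held the most members that fell. Of 25 genes of amino acid supply, one-carbon metabolism and ATF4 targets, 12 fell and 1 rose, where 4.37% of all genes tested fell. The median was -0.48 with either inhibitor, -0.50 with CM-4620, -0.44 with CsA and -0.35 without. Phgdh, the first enzyme of serine synthesis, held 7671, 7434 and 7715 normalized counts in the resting libraries, 4662, 4974 and 5079.8 with CM-4620 and 4489, 4242 and 4624 with CsA. Trib3, a pseudokinase that ATF4 induces, held 838, 808 and 810.4 normalized counts in the resting libraries, 398, 371 and 399 with CM-4620 and 422, 379.7 and 415 with CsA. Slc7a5, the large neutral amino acid transporter, went from 375, 434 and 366 to 179, 185 and 159.7 with CM-4620 and 198, 195 and 169.5 with CsA. In all 3 genes no treated library reached the resting range. Chac1, which breaks down glutathione, fell furthest, by 1.63. The remaining falls with each inhibitor were Slc7a3 (-0.67), Pycr1 (-0.67), Aldh18a1 (-0.65), Psph (-0.61), Shmt2 (-0.56), Slc3a2 (-0.55) and Asns (-0.53), and Atf4 itself was called over both inhibitors and with CM-4620 but not with CsA alone, at -0.85 with CM-4620 and -0.24 with CsA, a difference between inhibitors of -0.61 (limma adjusted p 1.51e-05). Slc7a3 and Asns were not called without replicate 1, and Slc3a2 without replicate 3. Ddit3, the stress factor CHOP, rose, and held 267, 266 and 317 normalized counts in the resting libraries, 394, 489 and 385 with CM-4620 and 510.0, 494 and 461 with CsA. Its change without inhibitor, 0.23, was not called.

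Of 32 genes of cholesterol and fatty acid synthesis, 15 fell and none rose, 11 of them with each inhibitor. The median was -0.45 with either inhibitor, -0.54 with CM-4620, -0.40 with CsA and -0.28 without. Fasn, the fatty acid synthase, held 3811, 3814 and 3832 normalized counts in the resting libraries, 2166, 2163 and 2292 with CM-4620 and 2569.6, 2355 and 2775 with CsA. Fdps, of the isoprenoid branch, held 4850.3, 4651 and 4837 normalized counts in the resting libraries, 2910.5, 3032 and 3139 with CM-4620 and 3271, 3293 and 3391 with CsA, with 4176, 3854 and 4069 without inhibitor. The treated libraries of Fdps thus lay below both other groups. Falls with each inhibitor were also seen in the desaturase Fads2 (-0.98), the elongase Elovl6 (-0.78), the SREBP-retaining Insig1 (-0.98) and the sterol enzymes Msmo1 (-0.83), Dhcr7 (-0.75), Idi1 (-0.73) and Nsdhl (-0.66). Hmgcs1 (-0.80), Lss (-0.61), Cyp51 (-0.61) and Scd1 (-0.55) were called over both inhibitors and not with each alone. Of these, Lss (-0.35), Cyp51 (-0.25) and Scd1 (0.17) were not called without inhibitor, and Hmgcs1 was (-0.55).

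**Figure D2:**
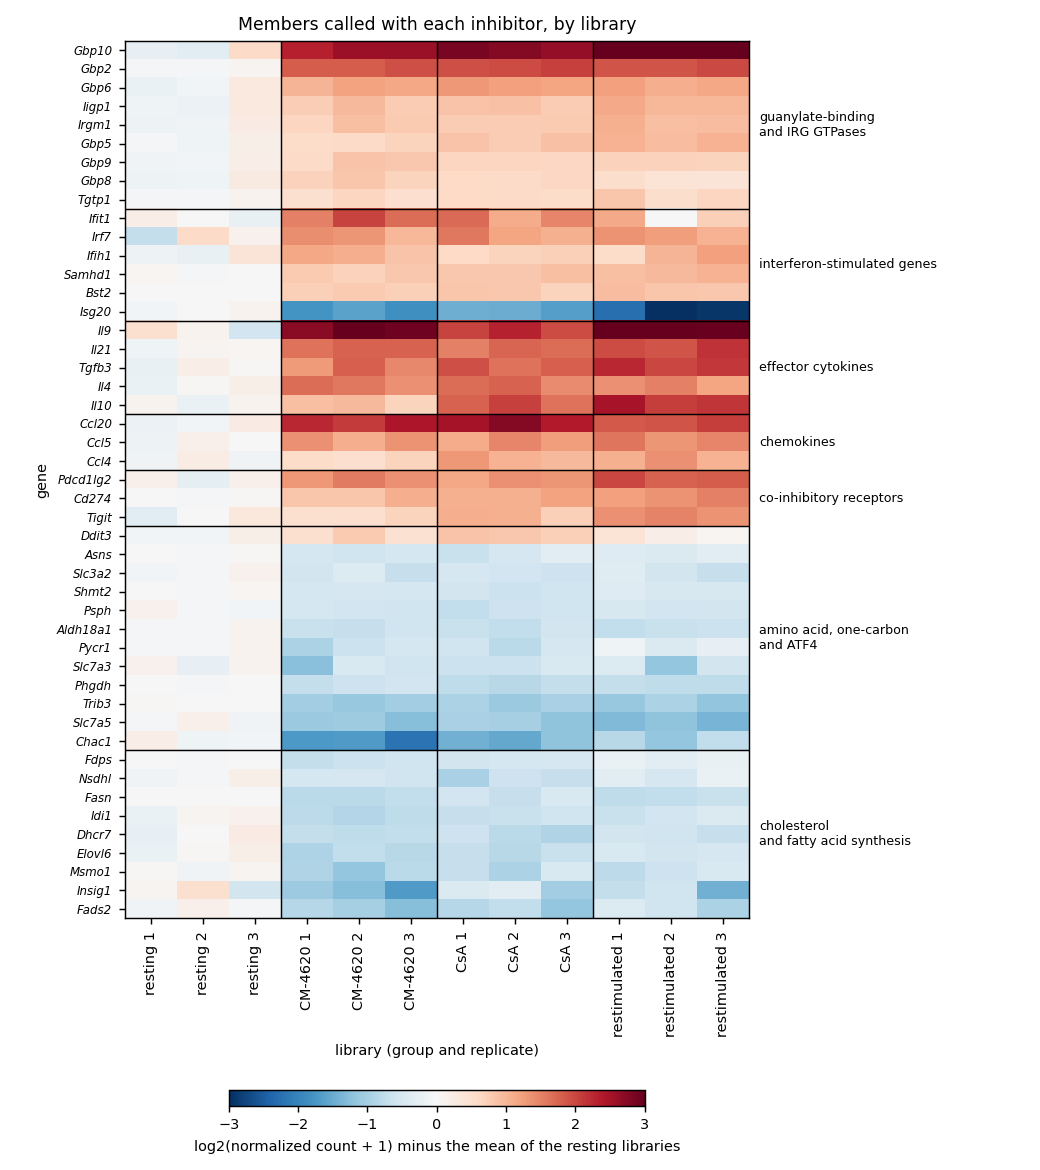
Change of the members of 7 gene lists that were called with each inhibitor, as log2(normalized count + 1) minus the mean of the 3 resting libraries, in each of 12 libraries; red is higher, blue is lower and colours end at 3 in either direction. The GTPase, cytokine and chemokine rows are red in the 6 libraries with an inhibitor and in the 3 without, the amino acid and lipid rows are blue apart from Ddit3, and Isg20 is blue within the interferon group.

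Other metabolic and stress groups moved less. Of 28 glycolytic and hypoxia-linked genes none rose and 4 fell, Pdk1 (-0.74), which holds pyruvate out of mitochondria, Aldoc (-0.62), the monocarboxylate carrier Slc16a1 (-0.58) and Ero1l (-0.65), the last not with CsA alone. The list median was -0.25 with either inhibitor and 0.07 without, where 2 members were called higher and 1 lower. Aldoc (-0.26), Slc16a1 (-0.29) and Ero1l (-0.16) were not called without inhibitor, and Pdk1 was (-0.54). Of 23 genes of the unfolded protein response 4 fell, Xbp1, Sdf2l1, Dnajb11 and Herpud1. Xbp1, the factor that splicing activates in this response, held 2566, 4321 and 1500.1 normalized counts in the resting libraries, 1631, 1573 and 856 with CM-4620 and 1872, 2168 and 892 with CsA. The resting replicates ranged widely, and replicate 3 was the lowest of its group in all 3 groups. Without the replicate block Xbp1, Sdf2l1 and Dnajb11 were not called (limma adjusted p 0.0778, 0.101 and 0.0628), and 1 of the 4 falls was left. Herpud1, which clears proteins from the endoplasmic reticulum, held 1379.6, 1371 and 1413 normalized counts in the resting libraries, 856, 889 and 866 with CM-4620 and 872, 948 and 1026 with CsA and was called either way.

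Groups tied to growth gave few or no calls, although some medians lay away from that of all genes, -0.01. With either inhibitor the median log2 fold change was -0.26 for mitosis, -0.17 for DNA replication and -0.12 for G1 regulators. It was -0.04 for the proteasome, -0.02 for MYC and ribosome biogenesis and 0.12 for mitochondrial ribosomal proteins. Without inhibitor it was -0.31 for mitosis and -0.18 for DNA replication. None of 27 MYC and ribosome biogenesis genes, 27 DNA replication genes, 13 G1 regulators, 37 proteasome subunits, 78 mitochondrial ribosomal proteins and 8 GIMAP genes passed the thresholds in limma, where 9.31% of all genes did. Mki67 was the only call among 22 mitosis genes (-0.51, not with each inhibitor), and Cox4i2 (-1.59) among 79 subunits of oxidative phosphorylation. Of 13 MAPK feedback genes Dusp1 was called (-0.51), and of 14 BCL2 family genes Bcl2a1b (0.60), a survival gene with near-identical copies, which was lost without replicate 2. Nedd4, one of 7 genes of anergy ligases and diacylglycerol kinases, rose by 0.73. Of 81 cytosolic ribosomal proteins 5 rose and none fell, where 4.94% of all genes tested rose. Their median was 0.30 against -0.01 over all genes. These calls were Rpl22l1, Rpl24, Rpl35, Rpl37 and Rpl37a, of which only Rpl22l1 was called with each inhibitor, and the count was 0 without replicate 3, 12 without replicate 1, 8 without replicate 2 and 2 after quantile normalization.

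**Figure D3:**
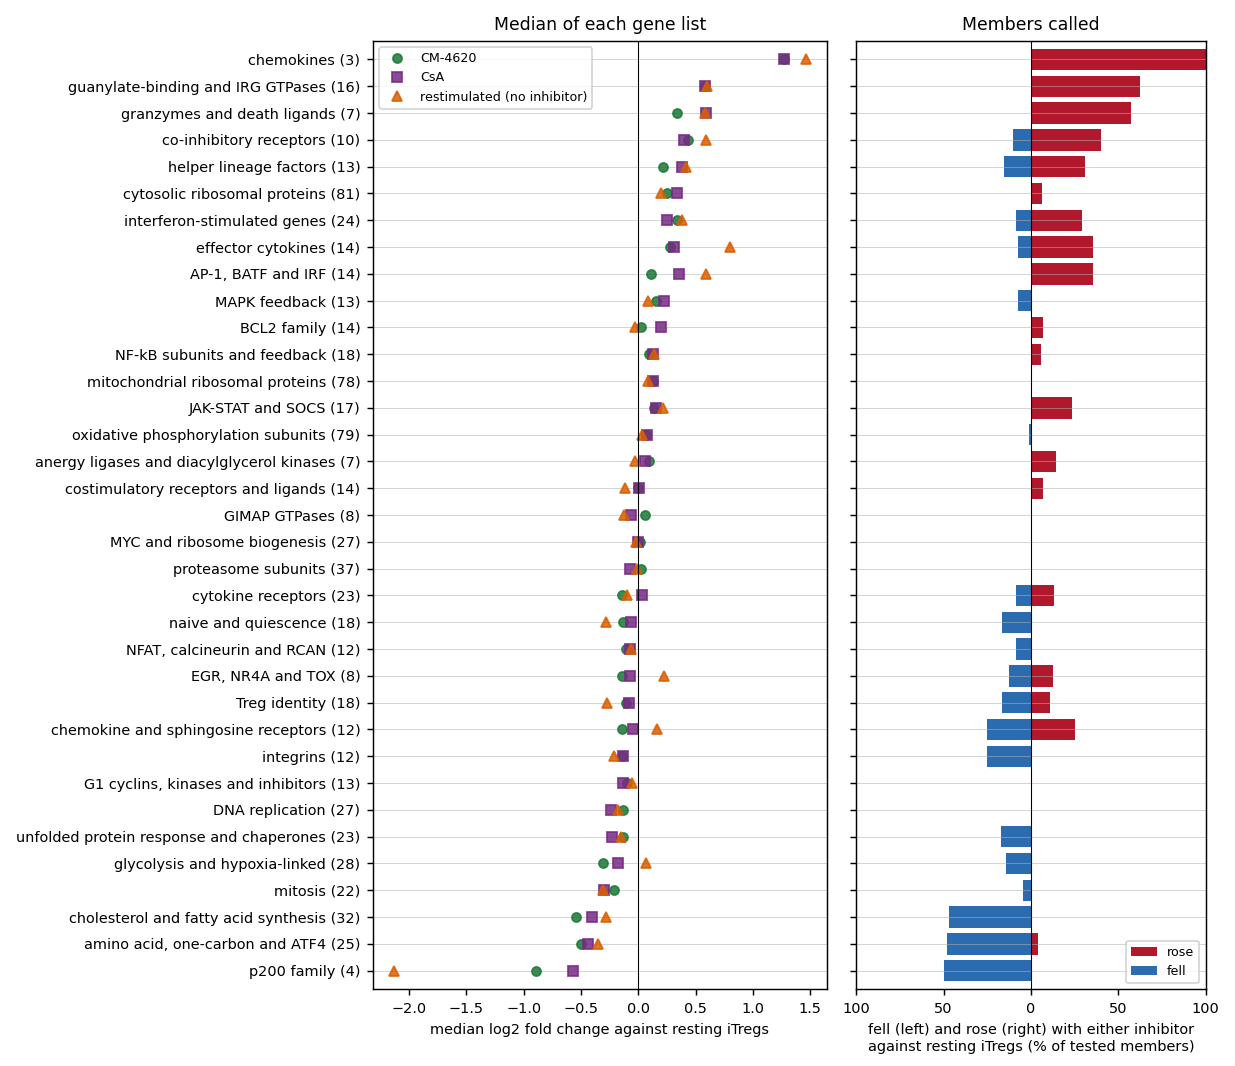
Left, median log2 fold change against resting iTregs of each gene list (number of tested members in parentheses) with CM-4620 (circles), CsA (squares) and no inhibitor (triangles); right, share of tested members that rose (red) or fell (blue) with either inhibitor. Chemokines and GTPases lie at the top and the p200, amino acid and lipid lists at the bottom, and the effector cytokine median is 0.80 without inhibitor against 0.28 and 0.31 with them.

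Some of the largest changes lay outside these groups. The 12 largest rises were taken among 256 genes that were called with each inhibitor, did not overlap with rest and had a mean of at least 50 normalized counts in the treated libraries (for falls, in the resting ones). They included Ly6g, a GPI-anchored surface protein best known from neutrophils, which held 10.5, 10.1 and 7.59 normalized counts in the resting libraries, 104, 97.7 and 81.6 with CM-4620 and 107, 147 and 102 with CsA. S100a8 and S100a9, neutrophil markers, were at 0 in all 12 libraries. Upp1, which splits uridine for ribose, held 148, 135 and 153 normalized counts in the resting libraries, 782, 829 and 730.1 with CM-4620 and 1196, 1138 and 1266 with CsA. The groups were separate, with a log2 fold change of 2.73 ± 0.07 (SE; limma adjusted p 1.27e-14). The other members were Lilrb4a (2.32), an inhibitory immunoglobulin-like receptor, Ctla2b (2.09), a protease inhibitor, Gucy1a1 (2.51), a subunit of the nitric oxide receptor, Tns4 (2.00), a focal adhesion protein, and the stefins Cstdc4 (2.93) and Csta2 (2.51), besides Gbp10, Gbp2, Ccl20 and Il12rb2. Exon bases shared with other models come to 68.7% in Ctla2b and 35.9% in Lilrb4a, and stefins are a family of close copies, so that their values are uncertain.

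The 12 largest falls were taken in the same way from 214 genes. Prok1, a prokineticin ligand, went from 61.1, 52.5 and 64.5 at rest to 8.16, 12.3 and 11.4 with CM-4620 and 2.04, 4.11 and 8.0 with CsA, and to 2.01, 1.12 and 2.72 without inhibitor, at or under the floor of 3 reads. Hsd11b1, which activates glucocorticoids, held 64.3, 58.5 and 105 normalized counts in the resting libraries, 13.3, 15.8 and 14.0 with CM-4620 and 17.4, 9.24 and 10.4 with CsA. Muc13, a membrane mucin, held 103, 118 and 155 normalized counts in the resting libraries, 30.6, 18.5 and 29.8 with CM-4620 and 37.8, 26.7 and 20.0 with CsA, and stood above its level without inhibitor of 4.03, 5.60 and 3.63. Gpt2, the mitochondrial alanine transaminase, fell by 1.75, Mctp1, a calcium-binding membrane protein, by 2.13, Pdlim4 by 1.60, Dnah7a by 1.60 and Coro6 by 1.59. Ifi203, Isg20, Chac1 and Ifitm3 are described above.

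In 41 genes the inhibitors gave levels called above those of both resting and restimulated iTregs, and in 18 genes levels called below both. Among the rises of this kind, Cstdc4 held 5.27, 6.05 and 6.83 normalized counts in the resting libraries, 38.8, 66.0 and 49.1 with CM-4620 and 61.3, 60.6 and 44.8 with CsA, but 7.05, 11.2 and 10.9 without inhibitor. Csta2 reached 73.5, 106 and 79.0 with CM-4620 and 53.1, 70.8 and 82.4 with CsA, against 10.5, 17.2 and 10.6 at rest and 23.2, 24.7 and 25.4 without inhibitor. Clu, a secreted chaperone, was at 0 in all resting libraries and at 10.2, 8.80 and 10.5 with CM-4620 and 18.4, 14.4 and 22.4 with CsA. Against the mean floor of 3 reads in a resting library, the mean of 3 libraries was at least 3.49-fold higher with CM-4620 and at least 6.51-fold higher with CsA. It stood at 2.01, 2.24 and 0.908 without inhibitor, below that floor. Slc1a1, a glutamate transporter, held 3.16, 7.06 and 5.31 normalized counts in the resting libraries, 21.4, 19.4 and 20.2 with CM-4620 and 25.6, 34.9 and 28.8 with CsA, with 7.05, 10.1 and 5.45 without inhibitor. Upp1 and Ly6g were called above restimulated iTregs as well, by 0.86 and 0.70.

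On the low side, Slc26a10, an anion transporter relative, held 89.6, 83.7 and 108 normalized counts in the resting libraries, 36.7, 46.6 and 39.5 with CM-4620 and 42.9, 54.4 and 35.2 with CsA, while it stood at 88.6, 101 and 86.3 without inhibitor. The treated libraries lay below both other groups, which overlapped. Pygl, the liver form of glycogen phosphorylase, held 104, 90.8 and 101 normalized counts in the resting libraries, 40.8, 31.7 and 27.2 with CM-4620 and 63.4, 48.2 and 61.6 with CsA, with 74.5, 65.0 and 83.6 without inhibitor. Lhfp stood at -1.22 against rest and -0.78 against restimulated iTregs. Atp7b, a copper transporter, held 31.6, 26.2 and 22.8 normalized counts in the resting libraries, 5.10, 10.6 and 6.14 with CM-4620 and 17.4, 30.8 and 23.2 with CsA, and all CM-4620 libraries but 1 of 3 CsA libraries lay below rest. Its call over both inhibitors was lost without replicate 1. Gpt2 and Chac1 were also below restimulated iTregs, by 0.55 and 0.72 on the log2 scale.

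**Figure D4:**
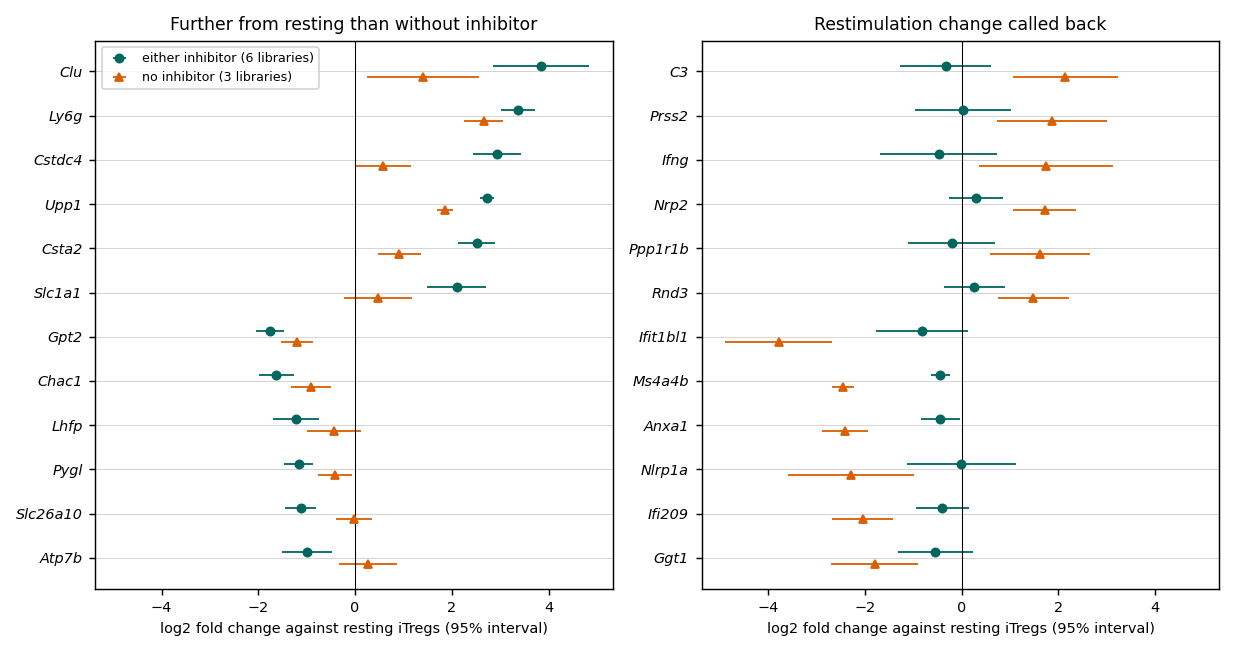
Log2 fold change against resting iTregs, with its 95% interval from limma, of genes called further from resting with the inhibitors than without (left, 6 higher and 6 lower) and of genes whose restimulation change was called back (right, 6 rises and 6 falls); circles are either inhibitor, triangles no inhibitor. Left, Cstdc4 is at 2.93 with and 0.59 without an inhibitor; right, Ms4a4b is at -0.44 with and -2.45 without.

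The counterpart is the part of the response that was not left. Of genes called on restimulation without inhibitor, 86 rises and 91 falls were called back by the inhibitors and not called against rest. These genes were chosen by that pattern, and their values describe it. Ms4a4b, a tetraspan protein of T cells (chr19:11443553-11467055), held 1868, 1899.7 and 2549 normalized counts in the resting libraries, 1483, 1730.4 and 1537 with CM-4620 and 1538, 1582 and 1363 with CsA, but 422, 338 and 389.6 without inhibitor. Its difference from rest, -0.44, was under the size limit, and passed it without replicate 1 or replicate 2. Anxa1, an anti-inflammatory annexin, held 43.2, 42.4 and 52.4 normalized counts in the resting libraries, 28.6, 29.9 and 35.1 with CM-4620 and 36.8, 28.7 and 44.8 with CsA, and 7.05, 6.72 and 9.99 without inhibitor. Ifit1bl1 and Ifi209, relatives of interferon-inducible genes, and Nlrp1a and Ggt1 had the same pattern at low counts. Among rises, Ifng, the cytokine interferon-γ, held 2.11, 3.03 and 10.6 normalized counts in the resting libraries, 2.04, 6.16 and 6.14 with CM-4620 and 2.04, 5.13 and 0 with CsA, and 13.1, 19.1 and 18.2 without inhibitor. The levels with inhibitor and at rest were near the floor of 3 reads, and its restimulation call was marginal (limma adjusted p 0.0496). Nrp2 stood at 30.2, 41.5 and 48.1 without inhibitor, with 9.24 to 21.4 over the treated libraries and 13.7, 7.06 and 14.4 at rest. C3, Prss2, Ppp1r1b and Rnd3 had the same pattern at low counts.

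Between the inhibitors 51 genes were called (0.459%; 12 higher and 39 lower with CM-4620), and 16 of them were among the 647. Lmna, the nuclear lamin A, had the largest of these 16 differences, with 65.3, 77.7 and 75.1 at rest, 126, 104 and 125 with CM-4620 and 309, 299.7 and 329 with CsA. Of the genes given here, Il10, Insig1, Pygl and Upp1 were also named by the rule. Lmna and the others were named after the values were seen. Of the 16 responses 13 were larger with CsA, and those of Cd74, Insig1 and Pygl were larger with CM-4620. Cd74, the invariant chain of MHC class II, stood at 814, 717 and 709 with CM-4620 and 425, 394 and 374 with CsA, from 198, 319.8 and 261. Among the remaining members were Fgl2, Gadd45g, Il10, Insig1, Klrc1, Lilr4b, Penk, Prss12, Pygl, Trat1, Upp1, Vps37b and Zbtb32. For Gbp2, where no difference was called, CM-4620 minus CsA was -0.14, with a 95% interval from -0.23 to -0.04. For Foxp3 it was 0.18 (from 0.02 to 0.34).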

How the data were processed

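Reads had been aligned by the authors with STAR 2.5.3 to mm10 and counted on GENCODE genes of GRCm38 with RSEM 1.3.0, after SMART-seq2 library preparation and trimming with Cutadapt 1.18. The authors deposited a signal per gene, the count scaled by a size factor of its library, which is called the normalized count here. Dividing by the smallest nonzero value of a library gave whole numbers throughout, the reads used for depth and for the count tests. SMART-seq2 does not mark strand, so that reads of overlapping genes cannot be told apart. It uses no molecular identifiers, and floors of 3 reads cover counting error only.

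Kept were 11105 of 21950 genes, those that reached 10 normalized counts in 3 or more of the 12 iTreg libraries. The filter took libraries of any group. Genes low at rest, such as Il9, Il4, Hlx, Ccr1 and Ifit1, did not pass on the resting libraries alone. They entered with the help of the restimulated groups, which favours rises in the list counts. Values on the log2(normalized count + 1) scale were fitted with limma 3.58.1 in R 4.3.3, with 4 group means, replicate number as a block and a trend in the prior variance. Benjamini-Hochberg adjustment was over all genes tested, and fold changes of low genes are understated by the pseudocount. Labels do not say whether replicates came from separate animals or cultures, so that p-values measure the spread between these samples, which may be technical. Replicates differed by at least 2.79 times the variance that counting gives, so that no library was a second copy.

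The members, the gene lists and the rule for named genes were chosen with earlier results of these data known. Named were list members called with each inhibitor, the 12 largest rises and 12 largest falls, the 6 largest on each side beyond restimulated iTregs or called back, and genes that the study names. Some list members are not reported here by name and stay in the counts. Alternatives were pseudocounts of 0.1 and 5, no filter, a filter of 100 normalized counts, size factors of the 12 libraries, quantile normalization, no block, only the groups compared, each replicate number left out, other thresholds, and edgeR 4.0.16 and DESeq2 1.42.0 on the recovered reads. The fits were tested on simulated reads with 200 changed genes. Positions and shared exon bases came from GENCODE M21, an older release of the same build, and promoters from RefSeq (GRCm38.p6), first start listed, for 79.7% of genes tested. Figures were drawn with matplotlib.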

Additional observations from a re-analysis of the deposited data

Results flagged for a closer look

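In 6 of the 132 genes that the rule named and that are reported here, the change from rest differed between CM-4620 and CsA by the test of that difference itself (limma on 12 libraries, 3 per group, both thresholds). All 6 were lower with CM-4620 than with CsA in every library, and the differences, CM-4620 minus CsA on the log2 scale, were -0.97 for Il10 (adjusted p 0.00323), -0.62 for Upp1 (0.000232), -0.53 for Gzma (2.31e-05), -0.76 for Insig1 (0.000258), -0.79 for Pygl (0.0211) and -1.60 for Atp7b (0.00632). Il10, Upp1 and Gzma rose less with CM-4620, whereas Insig1 and Pygl fell further. Atp7b held 5.10, 10.6 and 6.14 normalized counts with CM-4620 and 17.4, 30.8 and 23.2 with CsA, against 31.6, 26.2 and 22.8 at rest. The same test called 4 list members that were not called with each inhibitor alone, by -1.50 for Havcr2 (0.0126), -0.61 for Atf4 (1.51e-05), -0.62 for Hmgcs1 (1.59e-05) and -0.58 for Id2 (0.000276). It also called the genes given after their values were seen, by -1.39 for Lmna (3.7e-06), -0.95 for Fgl2 (0.0126), -0.69 for Gadd45g (3.49e-05), -0.97 for Klrc1 (0.0139), -0.61 for Lilr4b (0.00218), -0.64 for Penk (0.000232), -0.66 for Prss12 (0.0374), -0.52 for Vps37b (0.0305), -0.81 for Zbtb32 (0.00565), 0.91 for Cd74 (0.000364) and 0.63 for Trat1 (0.00336), of which Cd74 and Trat1 were higher with CM-4620. Groups of 3 libraries were not searched for single outlying libraries.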

How the results depend on the processing

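Counts of changed genes were within 1.5 times the reported ones under both pseudocounts, no filter, both rescalings, edgeR, DESeq2 and no replicate block. The replicate block was part of the reported fit, and without it the counts were 941 for either inhibitor against rest, 789 for CM-4620, 1047 for CsA, 1425 without inhibitor, 369 for either inhibitor against restimulated iTregs and 40 between the inhibitors. Of 18 same-number pairs of libraries, 10 correlated above 0.1 in their deviations from group means (median 0.139, from -0.039 to 0.302). Of 36 different-number pairs, 4 did (median -0.111, from -0.256 to 0.132). Deviations from a group mean cancel within the group, so positive same-number pairs entail negative different-number pairs. The latter are thus no separate evidence. In 11 of 12 libraries the best-correlated library of another group had their own number. Libraries thus tended to follow their number, but labels do not say what the numbers pair. A filter of 100 normalized counts tests fewer genes and gave 563, 556, 696, 911 and 228 in the first 5 comparisons. The adjusted p alone gave 3576, 2648, 3332, 3805, 1544 and 150, and a log2 fold change above 1 gave 277, 238, 306, 489, 83 and 7. Requiring each inhibitor alone left 647 of the 1034. Fitting only the groups compared gave 81 genes between the inhibitors, and the cause was not tested. Leaving out one replicate number of every group gave 869 to 1078 for either inhibitor against rest, 265 to 341 against restimulated iTregs, the lowest without replicate 2, and 23 to 47 between the inhibitors, also lowest without replicate 2. The count of 647, recomputed under the same settings after the data were seen, was 472 without replicate 3, 554 with DESeq2, 657 with edgeR and 578 without the block. Over 1739 recomputed values, each 1 named gene in 1 setting, 15 lost their call and 10 gained one. None changed direction where the gene was called in the reported fit or in that setting. Changes of sign in genes called in neither were not counted. Depth limits genes near the floor of 3 reads, 2.28 to 3.16 normalized counts.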

Other observations

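Several genes outside the lists moved with each inhibitor and by differing amounts without one. They were picked after their values were seen, so that these values are a description. Fgl2, a secreted effector protein of Tregs, held 26.3, 37.3 and 22.0 normalized counts in the resting libraries, 95.9, 88.0 and 53.5 with CM-4620 and 169, 200.1 and 99.2 with CsA, and 38.3, 45.9 and 16.3 without inhibitor. All 6 treated libraries of Fgl2 lay above both other groups. Klrc1, which encodes the inhibitory receptor NKG2A, held 24.2, 20.2 and 34.9 normalized counts in the resting libraries, 66.3, 71.3 and 57.9 with CM-4620 and 127, 139 and 121 with CsA, and 69.5, 51.5 and 59.0 without inhibitor. Gadd45g, a stress sensor that feeds p38, held 703, 654 and 596 normalized counts in the resting libraries, 1274, 1229.6 and 1177 with CM-4620 and 1874, 1914 and 2173 with CsA, and 1364, 1303 and 1399.6 without inhibitor, and Penk, which encodes proenkephalin, stood at means of 386 at rest, 550.3 with CM-4620, 858 with CsA and 785 without inhibitor.

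Trat1, an adaptor of the T cell receptor, fell in steps. Its means were 934 ± 160.1 (SD, n = 3) at rest, 564 ± 50.0 with CM-4620, 363 ± 26.7 with CsA and 269.8 ± 16.6 without inhibitor. Over the 64 genes that rose with each inhibitor and were not called without one, the median log2 fold change was 0.69 with CM-4620, 0.78 with CsA and 0.40 without inhibitor. Over the 61 such genes that fell, it was -0.67, -0.59 and -0.38. Both sets were chosen by these same calls, which largely fixes the smaller median without inhibitor. The medians are therefore a description.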
